A study of Mus musculus with 10 samples.

Results

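The genes described here encode the secreted growth factors and receptors that build and stabilise blood and lymphatic vessels: the ligands Vegfa, Vegfb, Vegfc and Pgf, the VEGF receptors Flt1, Kdr and Flt4, the angiopoietins Angpt1 and Angpt2, and their receptor Tek. They were chosen by name as a signalling pathway, and all 10 were found by symbol among the 18223 genes of the deposited table. RNA-seq was made of whole subcutaneous tumours of MC38, a mouse colon adenocarcinoma line that is grown in mice with an intact immune system. Tumours of high tumour burden (HTB, 5 libraries, labelled 2000000 over 14 days) were set against tumours of low tumour burden (LTB, 5 libraries, labelled 500000 over 14 days), where the amounts are taken to be injected MC38 cells. All 10 tumours shared the cell line, the subcutaneous site and the growth time, and the labels used here name no drug, genotype, strain, sex, age or measured tumour size. Nothing in the labels says that each library came from its own animal, so p-values measure the spread between these libraries, which may be partly technical.

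VEGF-A is the main ligand of vessel growth and is induced when oxygen is low. It binds VEGFR1 (Flt1), which holds ligand back as a decoy and also serves monocytes, and VEGFR2 (Kdr), which carries most of the growth signal in endothelial cells. PlGF (Pgf) and VEGF-B bind VEGFR1, while VEGF-C acts through VEGFR3 (Flt4) on lymphatic vessels and on sprouting blood vessels. Angiopoietin 1, made by cells around the vessel, activates the receptor TIE2 (Tek) and keeps vessels quiet and tight, whereas angiopoietin 2, released by activated endothelium, competes with it and loosens the vessel wall. TIE2 is also carried by a subset of macrophages that sit along vessels.

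Of the members, 8 had a promoter in RefSeq's annotation of GRCm38.p6. The 250 bases before the start of Vegfa (chr17:46032378-46032627, minus strand), Vegfb (chr19:6987652-6987901, minus strand) and Tek (chr4:94739039-94739288, plus strand) are printed because Vegfa and Tek were the members whose groups did not overlap, and because Vegfb is a close relative of Vegfa whose groups overlapped. They are written 5′ to 3′ on the strand of the gene, and capitals mark matches to the GC box (GGGCGG) and to the core of the hypoxia response element (ACGTG or GCGTG), searched on both strands.
Vegfa: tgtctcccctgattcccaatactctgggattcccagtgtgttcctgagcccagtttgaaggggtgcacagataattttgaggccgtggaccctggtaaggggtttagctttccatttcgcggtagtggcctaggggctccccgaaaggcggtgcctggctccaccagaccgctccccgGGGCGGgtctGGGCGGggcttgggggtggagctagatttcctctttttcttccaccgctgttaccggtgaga
Vegfb: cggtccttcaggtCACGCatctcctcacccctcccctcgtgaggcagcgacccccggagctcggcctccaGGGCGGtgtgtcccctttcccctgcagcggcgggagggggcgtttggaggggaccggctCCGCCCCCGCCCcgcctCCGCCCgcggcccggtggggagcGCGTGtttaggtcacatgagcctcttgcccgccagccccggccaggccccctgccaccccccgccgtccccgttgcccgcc
Tek: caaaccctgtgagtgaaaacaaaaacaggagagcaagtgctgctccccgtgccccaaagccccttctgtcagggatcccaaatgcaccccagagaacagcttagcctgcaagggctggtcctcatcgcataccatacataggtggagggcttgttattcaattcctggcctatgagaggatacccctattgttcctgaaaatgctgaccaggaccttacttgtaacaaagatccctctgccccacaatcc
The Vegfa window held 2 GC boxes, which begin 72 and 62 bases before the start, and no hypoxia core. Its relative Vegfb had 4 GC boxes and 2 hypoxia cores, none of which share bases. Neither motif occurred in the Tek window, whose 51.2% of G and C compares with 59.2% for Vegfa, 76.4% for Vegfb and a median of 52.4% over all promoters. Among 32817 promoter windows of this length, 32.7% held a GC box and 38.6% a hypoxia core. Of the 8 members, 7 held a GC box and 5 a hypoxia core in at least 1 of their windows. Vegfa and Pgf had 2 windows each, so these counts by gene are not on the same footing as the shares by window. A STAT motif (TTCNNNGAA, both strands), present in 7.01% of all windows, matched none of the 10 windows of the 8 members. A further, internal start of Vegfa (chr17:46025164-46025413) had 2 hypoxia cores, at 218 and 211 bases, and 1 GC box. This window lies inside the gene, where letters can also belong to exons. Vegfa is among the 5 members with a hypoxia core through this window alone. Bases further upstream than 250 were not searched, so a window without a match does not show that the gene lacks the element. These are letter matches only, and binding was not tested.

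Library totals ran from 24884292 to 27185168 estimated reads in HTB and from 23070917 to 26880191 in LTB. One library stood apart. HTB replicate 2 held 16430 CPM (counts scaled to library size) of 12 skeletal muscle markers, beside 11.0 to 70.8 CPM in the remaining HTB replicates and 6.76 to 9.69 CPM in LTB. Its 8 adipocyte markers summed to 5568 CPM, beside 106 to 264 CPM in the remaining HTB replicates and 79.5 to 124 CPM in LTB. The 18 endothelial markers summed to 623 CPM there, to 238 to 271 CPM in the remaining HTB replicates and to 197 to 289 CPM in LTB. The part of muscle, fat and their vessels in its values was not tested. In whole tissue, fewer cells of a type and less RNA per cell cannot be told apart.

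With all libraries, 1 of the 10 members passed the test across the transcriptome, the ligand gene Vegfa, which fell. The test was the quasi-likelihood test of edgeR, with p-values adjusted over 13469 genes (Benjamini-Hochberg) and a threshold of 0.05, and 11.4% of all genes passed it (7.51% lower and 3.91% higher in HTB). At an unadjusted p under 0.05 there were 4 members, Vegfa, Vegfc, Flt4 and Tek. The share of all genes under that unadjusted p was not counted, and the 11.4% does not apply to it. DESeq2 called 3 members, Vegfa lower and Flt4 and Tek higher, where it called 2449 of the 13469 genes entered (1384 lower and 1065 higher). DESeq2 also filters genes itself and gave Angpt1 no adjusted p, so 13469 is not the number of genes it judged. When HTB replicate 2 was left out, 2 members passed, Vegfa lower and Tek higher, where 22.4% of 13551 genes passed (12.7% lower and 9.77% higher). The median log2 fold change over the members was 0.09, and -0.14 without that library, beside 0.02 and -0.01 over all genes tested. HTB and LTB did not overlap for Vegfa, lower as for 7.06% of all genes, and for Tek, higher as for 4.68% (11.7% in either direction). The same 2 did not overlap without HTB replicate 2, where 24.0% of all genes did not (11.9% higher and 12.1% lower). With 10 members, the edgeR and overlap counts are near the background share. None of these counts says anything particular about the set.

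Vegfa (GRCm38; NCBI gene 22339; chromosome 17, 46016993 to 46032377, minus strand) was the one member that passed in every alternative run. It was measured at 141, 116, 96.4, 136 and 152 CPM in HTB replicates 1 to 5, against 179, 215, 167, 213 and 244 CPM in LTB replicates 1 to 5. All 5 HTB libraries lay below all 5 LTB libraries, and HTB replicate 2 sat inside the range of its group. The means were 128 ± 22.0 CPM in HTB and 204 ± 30.5 CPM in LTB (SD, n = 5 each). The log2 fold change was -0.66 ± 0.14 (SE), with an adjusted p of 0.0135 by edgeR, and -0.63 ± 0.14 with HTB replicate 2 left out (adjusted p = 0.0142). Over 18 alternative analyses it ran from -0.73 to -0.58 with an adjusted p of 8.77e-05 to 0.0333. In the authors' deposited table the log2 fold change of Vegfa, positive where HTB is higher, is -0.66, with a q-value of 0.000151. Macrophages are a source of VEGF-A besides the tumour cells. Of 12 macrophage markers 4 fell (Cd68, Itgam, Lyz2 and Msr1) and Cd163 rose, beside 7.51% and 3.91% of all genes. Without HTB replicate 2, 3 of the 4 fell and Cd163 rose, beside 12.7% and 9.77% of all genes. Itgam, an integrin of myeloid cells, changed by -1.23 ± 0.21 and Msr1, a scavenger receptor, by -1.28 ± 0.24, while HTB libraries summed to 810 to 1379 CPM over the markers and LTB libraries to 1273 to 2498 CPM. Their part in the Vegfa value was not tested.

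The other ligands of the VEGF family did not pass. Vegfb (NCBI gene 22340; chromosome 19, 6982472 to 6987651, minus strand), which binds Flt1, had 49.7, 57.2, 48.0, 45.4 and 42.9 CPM in HTB replicates 1 to 5, against 47.4, 51.0, 45.3, 57.0 and 49.5 CPM in LTB replicates 1 to 5. The groups overlapped almost fully, and the log2 fold change was -0.04 ± 0.09 (adjusted p = 0.788, edgeR), or -0.10 ± 0.08 without HTB replicate 2 (adjusted p = 0.340).

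Vegfc (NCBI gene 22341; chromosome 8, 54077532 to 54186454, plus strand), the lymphatic ligand, was a low gene, with 14 to 34 reads per HTB library and 27 to 47 per LTB library. Its level was 1.24, 0.788, 1.06, 0.507 and 0.769 CPM in HTB replicates 1 to 5, against 1.78, 1.05, 1.20, 1.72 and 1.60 CPM in LTB replicates 1 to 5. Of the HTB libraries, 3 lay below every LTB library. The log2 fold change of -0.75 ± 0.27 did not pass (adjusted p = 0.0991, edgeR), nor did -0.71 ± 0.29 without HTB replicate 2 (adjusted p = 0.0958). Vegfc was also the one member with fractional values in the deposited table, 4 of them.

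Pgf (NCBI gene 18654; chromosome 12, 85166637 to 85177785, minus strand), the gene of PlGF, had 2.40, 2.16, 2.78, 4.49 and 3.19 CPM in HTB replicates 1 to 5, against 3.67, 3.50, 2.22, 4.70 and 4.05 CPM in LTB replicates 1 to 5. The ranges overlapped, with a log2 fold change of -0.27 ± 0.25 (adjusted p = 0.503, edgeR), or -0.17 ± 0.24 without HTB replicate 2 (adjusted p = 0.628). The ratio of Pgf to Vegfa reads was 0.0172 to 0.0331 in HTB and 0.0134 to 0.0222 in LTB. That difference of 0.39 on the log2 scale did not pass (two-sided permutation test, exact p = 0.135, adjusted p = 0.315 over 7 ratios).

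**Figure D1:**
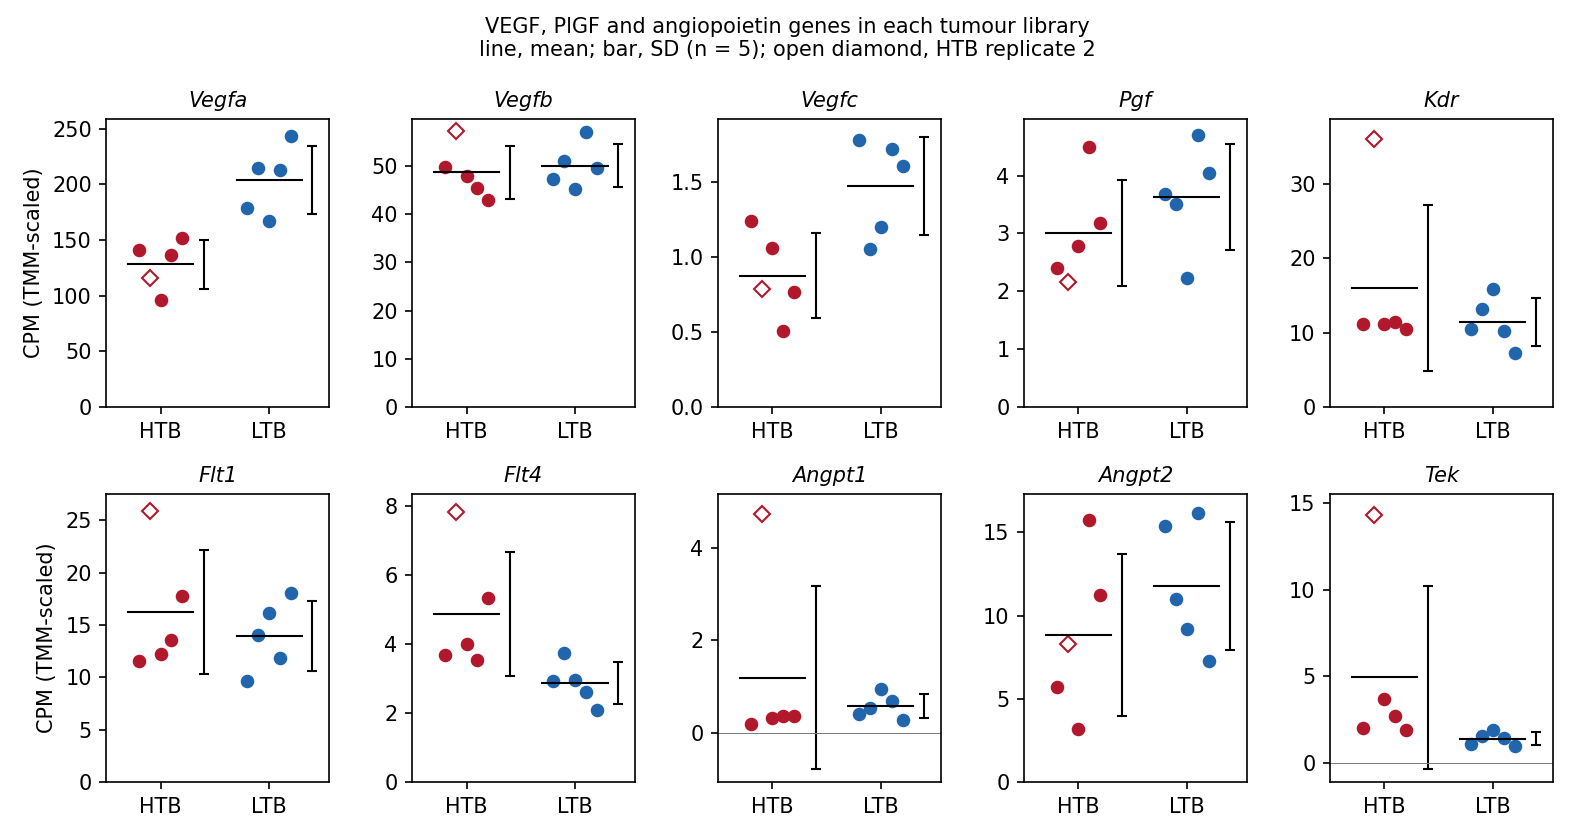
Expression of the 10 genes in each library, in CPM on a linear axis (HTB red, LTB blue; line, mean; bar, SD, n = 5 per group; open diamond, HTB replicate 2). Vegfa at 96.4 to 152 CPM in HTB lies wholly below its LTB range of 167 to 244 CPM, and HTB replicate 2 is far above the other libraries for Kdr, Angpt1 and Tek.

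Among the VEGF receptors, Kdr (NCBI gene 16542; chromosome 5, 75932527 to 75979207, minus strand) was set by 1 library. It had 11.2, 36.0, 11.2, 11.4 and 10.4 CPM in HTB replicates 1 to 5, against 10.6, 13.2, 15.9, 10.2 and 7.25 CPM in LTB replicates 1 to 5. Apart from replicate 2, at 3.22 times the median of the other HTB libraries, all HTB values lay inside the LTB range. The log2 fold change was 0.49 ± 0.37 with all libraries (adjusted p = 0.408, edgeR) and -0.05 ± 0.19 without HTB replicate 2 (adjusted p = 0.882).

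Flt1 (NCBI gene 14254; chromosome 5, 147561606 to 147726005, minus strand) had 11.6, 25.9, 12.3, 13.6 and 17.8 CPM in HTB replicates 1 to 5, against 9.62, 14.0, 16.2, 11.8 and 18.1 CPM in LTB replicates 1 to 5. HTB replicate 2 was again the highest library, at 2.01 times the median of the others of its group. The log2 fold change was 0.22 ± 0.24 (adjusted p = 0.588, edgeR) and -0.01 ± 0.19 without that library (adjusted p = 0.966). The table gives 1 value per gene, so the soluble decoy form of VEGFR1 and the membrane receptor are counted together. The ratio of Flt1 to Kdr reads was 0.719 to 1.70 in HTB and 0.911 to 2.49 in LTB (difference -0.16 on the log2 scale, permutation test, exact p = 0.675, adjusted p = 0.787).

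Flt4 (NCBI gene 14257; chromosome 11, 49609679 to 49652739, plus strand) was higher in most HTB libraries, at 3.68, 7.80, 3.99, 3.52 and 5.31 CPM in HTB replicates 1 to 5, against 2.92, 3.74, 2.95, 2.60 and 2.09 CPM in LTB replicates 1 to 5. Of the HTB libraries, 3 stood above every LTB library, and the remaining 2 lay below LTB replicate 2 alone. The log2 fold change of 0.76 ± 0.25 did not pass (adjusted p = 0.0770, edgeR), nor did 0.53 ± 0.20 without HTB replicate 2 (adjusted p = 0.0752). DESeq2's Wald test gave 0.77 with an adjusted p of 0.0349, the lowest of 18 alternatives, which reached 0.143. In the authors' deposited table its q-value is 0.0391.

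Flt4 is best known from lymphatic endothelium. The lymphatic transcription factor gene Prox1 was at 0 to 0.374 CPM across HTB libraries and 0 to 0.191 CPM across LTB libraries. The lymphatic markers Mmrn1, Reln and Ccl21a did not exceed 0.696 CPM in any HTB library or 0.795 CPM in any LTB library. Of the 6 lymphatic markers 2 passed the filter on low counts, and both are also made by other cells of a tumour. Lyve1 rose (9.38 ± 7.37 CPM in HTB and 1.22 ± 0.838 CPM in LTB, log2 fold change 2.94 ± 0.78, adjusted p = 0.0353, edgeR), and Pdpn stood at -0.50 ± 0.18 (adjusted p = 0.0899).

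Tek (NCBI gene 21687; chromosome 4, 94739289 to 94874976, plus strand), the gene of TIE2, was higher in every HTB library than in any LTB library. It had 2.04, 14.3, 3.70, 2.72 and 1.94 CPM in HTB replicates 1 to 5, against 1.10, 1.60, 1.92, 1.45 and 0.979 CPM in LTB replicates 1 to 5. HTB replicate 2 stood at 6.02 times the median of the other HTB libraries, and HTB replicate 5 was just above the highest LTB library. With all libraries the log2 fold change was 1.80 ± 0.56 and did not pass (adjusted p = 0.0628, edgeR). With HTB replicate 2 left out it was 0.88 ± 0.26, with means of 2.60 ± 0.809 CPM in HTB (SD, n = 4) and 1.41 ± 0.382 CPM in LTB (SD, n = 5), and it passed by edgeR (adjusted p = 0.0369). That call was lost again when LTB replicate 1 was also left out (0.80, adjusted p = 0.0613). DESeq2's Wald test with all libraries gave 1.81 with an adjusted p of 0.00980, and over 18 alternatives the adjusted p ran up to 0.150. The q-value of Tek in the authors' deposited table is 0.0122.

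Of the 12 macrophage markers, 1 passed the test as higher in HTB, where 3.91% of all genes did, and it is named because it passed. Cd163, a scavenger receptor, rose (4.32 ± 3.74 CPM in HTB and 0.705 ± 0.450 CPM in LTB, log2 fold change 2.62 ± 0.67, adjusted p = 0.0322, edgeR), and so did Lyve1, which some macrophages carry. Leaving out HTB replicate 2, they were at 1.99 ± 0.54 (adjusted p = 0.0270) and 2.56 ± 0.73 (adjusted p = 0.0322). Mrc1, often used for macrophages along vessels, stood at -0.08 ± 0.31 (adjusted p = 0.881), and 4 of the 12 markers fell, as given beside Vegfa. The part of macrophages in the Tek value was not tested.

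The ligands of TIE2 did not pass. Angpt2 (NCBI gene 11601; chromosome 8, 18690263 to 18741562, minus strand), the antagonist, spread widely in both groups, with 5.72, 8.30, 3.18, 15.7 and 11.2 CPM in HTB replicates 1 to 5, against 15.4, 11.0, 9.19, 16.2 and 7.30 CPM in LTB replicates 1 to 5. The highest HTB library was close to the highest LTB library, and 2 HTB libraries lay below every LTB library. The log2 fold change was -0.42 ± 0.38 (adjusted p = 0.501, edgeR), and -0.40 ± 0.41 without HTB replicate 2 (adjusted p = 0.501).

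Angpt1, the agonist, was near the detection limit in all libraries but 1. It had 5, 114, 9, 10 and 10 reads in HTB replicates 1 to 5, against 11, 14, 22, 18 and 6 reads in LTB replicates 1 to 5. This corresponds to 4.73 CPM in HTB replicate 2, 0.182 to 0.366 CPM in the remaining HTB replicates and 0.267 to 0.940 CPM in LTB. The direction turned on that library: the log2 fold change was 1.04 ± 0.87 with it (adjusted p = 0.452, edgeR) and -0.87 ± 0.39 without it (adjusted p = 0.124). In the deposited table Angpt1 (NCBI gene 11600) spans bases 42424667 to 42704616 of chromosome 15 on the plus strand, whereas GENCODE M21 has it on the minus strand. The end of that span is also the end of the antisense gene Gm17473 (42676241 to 42704616, plus strand), whose exons overlap those of Angpt1. Reads of the antisense gene therefore cannot be told apart from Angpt1 in these values.

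The ratio of antagonist to agonist, Angpt2 to Angpt1, followed the same library. It was 28.6, 1.75, 9.21, 41.4 and 29.3 in HTB replicates 1 to 5, against 35.4, 19.5, 9.58, 22.9 and 25.3 in LTB replicates 1 to 5, with 0.5 added to each read count. HTB replicate 2 was the lowest of the 10 libraries, and the other HTB values spanned the LTB range. The difference was -0.55 on the log2 scale with it (two-sided permutation test, exact p = 0.659, adjusted p = 0.787) and 0.20 without it (exact p = 0.698, adjusted p = 0.984).

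**Figure D2:**
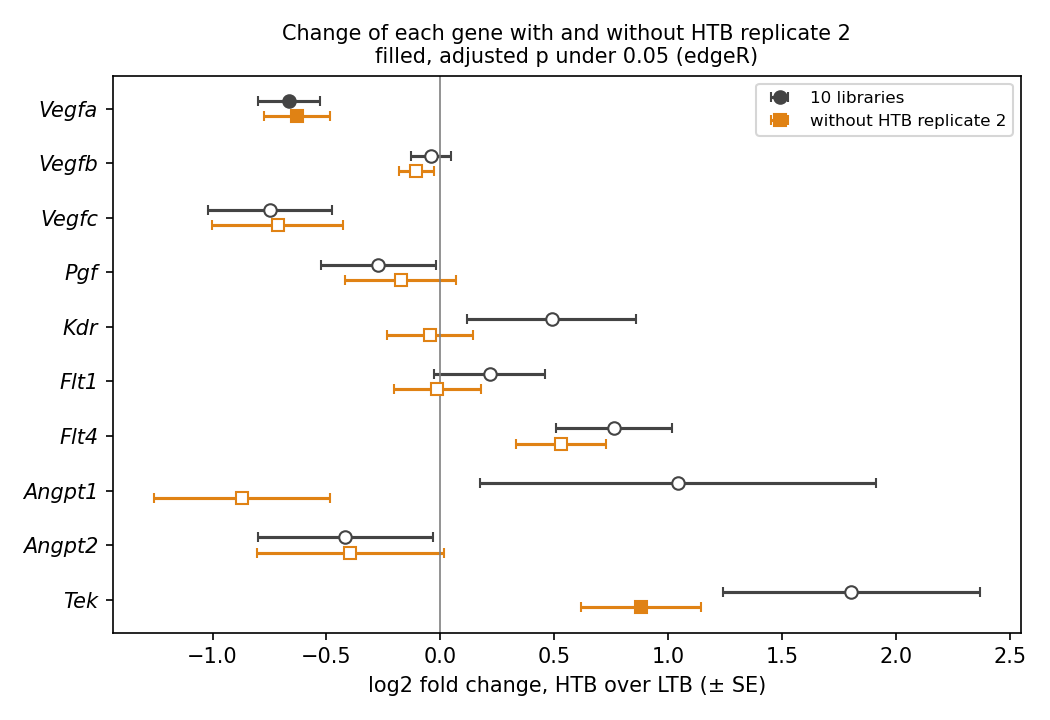
Log2 fold change of HTB over LTB for each gene (± SE, edgeR), with all 10 libraries (circles) and without HTB replicate 2 (squares); filled symbols have an adjusted p under 0.05. Vegfa passes in both fits, at -0.66 and -0.63. Kdr, Flt1 and Angpt1 change sign without HTB replicate 2, and Tek is at 0.88 and passes.

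Because the receptors are made mainly by endothelial cells, each was also set against the mean log2 read count of 18 endothelial markers, none of which is a member. With all libraries 0 of the 18 markers passed by edgeR, where 11.4% of all genes did. An unadjusted p under 0.05 was reached by 5, all higher, with the share of all genes not counted. DESeq2 called 1 higher, where it called 1065 of 13469 genes higher. The median log2 fold change of the markers was 0.47, and 0.00 without HTB replicate 2. In that fit 2 markers fell, where 12.7% of all genes fell. These were the clotting factor gene Vwf at -1.29 ± 0.29 (adjusted p = 0.0132) and Eng, a TGF-beta co-receptor, at -0.43 ± 0.13 (adjusted p = 0.0383). With all libraries they stood at -0.77 ± 0.41 and 0.07 ± 0.33. Erg, an endothelial transcription factor, stood at 0.96 ± 0.33 with all libraries (adjusted p = 0.0844) and at 0.55 ± 0.20 without HTB replicate 2 (adjusted p = 0.0676). Sox18, another, was at 1.29 ± 0.49 (adjusted p = 0.112) and 0.46 ± 0.18 without it (adjusted p = 0.0894). That library held 11.2 CPM of Erg and 30.2 CPM of Sox18, where HTB replicates 1, 3, 4 and 5 reached 4.91 and 7.17 CPM.

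Kdr kept a steady proportion to the endothelial markers, at 1.35 to 1.56 times their geometric mean in HTB and 1.25 to 1.76 times in LTB. HTB replicate 2, at 1.54 times, no longer stood apart. The difference was 0.03 on the log2 scale (two-sided permutation test, exact p = 0.833, adjusted p = 0.833). Flt1 was at 1.10 to 2.29 times the marker mean in HTB and 1.14 to 3.20 times in LTB, a difference of -0.13 (exact p = 0.659, adjusted p = 0.787).

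Of the receptors, Tek showed the largest difference relative to the endothelial markers. Its proportion was 0.287, 0.611, 0.470, 0.359 and 0.253 in HTB replicates 1 to 5, against 0.132, 0.200, 0.216, 0.195 and 0.177 in LTB replicates 1 to 5, again with no overlap between the groups. The difference of 1.05 on the log2 scale, 2.07-fold, had an exact permutation p of 0.00794, the smallest that 5 against 5 libraries can give. Adjusted over the 7 ratios it was 0.0556, the smallest value a lone ratio could reach in this design and over the threshold, although Tek was higher in 5 of 5 HTB libraries. With HTB replicate 2 left out the difference was 0.88, or 1.83-fold (exact p = 0.0159, adjusted p = 0.111). The groups still did not overlap, and this exact p is the smallest that the two-sided test gives for 4 against 5 libraries.

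Flt4 stood at 0.333 to 0.687 of the marker mean in HTB and 0.329 to 0.465 in LTB, a difference of 0.40 on the log2 scale (exact p = 0.0873, adjusted p = 0.306). HTB replicate 2 was the lowest of its group on this measure, and with it left out the difference was 0.54 (exact p = 0.0318, adjusted p = 0.111). With all libraries and the log2 of the summed marker reads as reference, the Flt4 difference was 0.49 (permutation test, adjusted p = 0.0556).

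**Figure D3:**
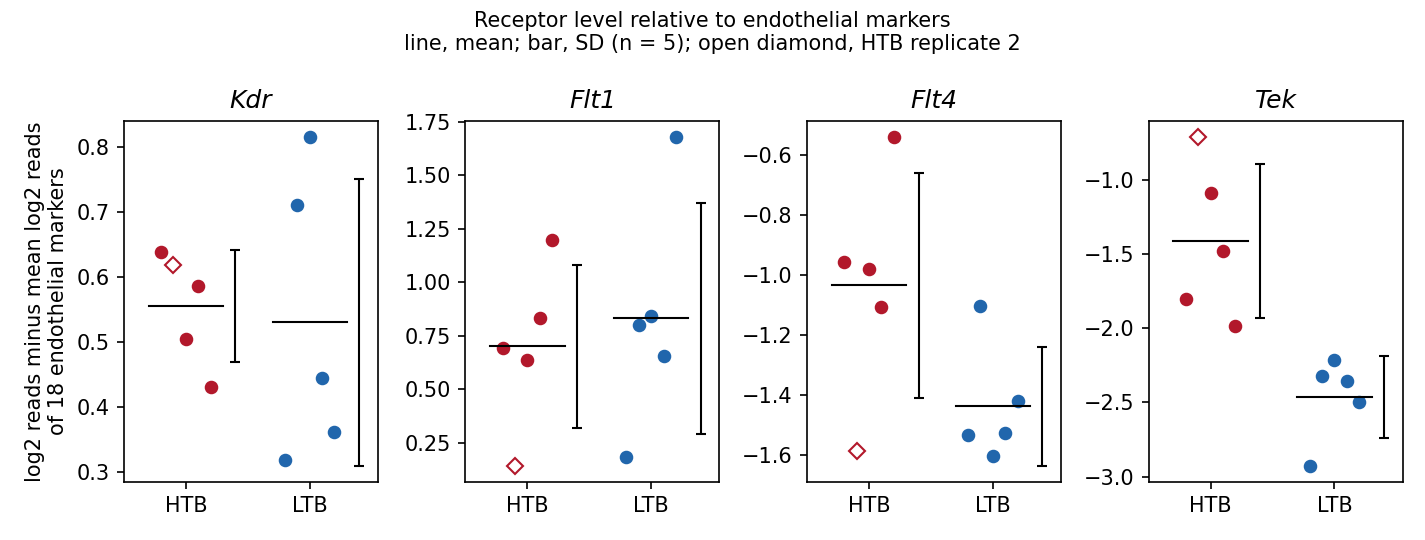
Receptor level relative to 18 endothelial markers, as log2 reads minus the mean log2 reads of the markers, in each library (HTB red, LTB blue; line, mean; bar, SD, n = 5 per group; open diamond, HTB replicate 2). Tek lies at -1.98 to -0.71 in HTB, above its LTB range of -2.92 to -2.21, while Kdr stays between 0.32 and 0.82 in all libraries.

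Most of the listed genes induced by low oxygen fell, as did Vegfa, itself a target of the hypoxia-inducible factors. Of 20 such genes, from a list that leaves Vegfa out, 13 fell and 0 rose, where 7.51% of all genes fell, with a median log2 fold change of -0.86 beside 0.02 over all genes tested. Leaving out HTB replicate 2, 15 fell and 0 rose, where 12.7% of all genes fell (median -0.90). The glycolytic gene Pfkp was at 63.0 ± 7.16 CPM in HTB and 120 ± 11.1 CPM in LTB (SD, n = 5 each), and changed by -0.93 ± 0.09 on the log2 scale (adjusted p = 0.000593, edgeR). Pgam1, also of glycolysis, was at 360 ± 44.1 CPM in HTB and 604 ± 64.2 CPM in LTB (-0.75 ± 0.10, adjusted p = 0.00236). P4ha2, whose product hydroxylates collagen, was at 16.7 ± 3.68 CPM in HTB and 43.9 ± 7.70 CPM in LTB (-1.40 ± 0.17, adjusted p = 0.00124). Summed over the list, HTB libraries held 3955 to 6453 CPM and LTB libraries 7023 to 10650 CPM. With all libraries, 7 of the 20 did not pass. The part of low oxygen in the Vegfa value was not tested.

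Of 8 tested genes of the oxygen-sensing machinery itself, 3 fell and 0 rose, where 7.51% of all genes fell. Egln3, a prolyl hydroxylase that marks the factors for destruction and is itself induced by them, was at 4.68 ± 1.49 CPM in HTB and 20.8 ± 7.28 CPM in LTB (log2 fold change -2.15 ± 0.29, adjusted p = 0.00251, edgeR). Its relative Egln1 changed by -0.63 ± 0.12 (adjusted p = 0.0118) and Hif1a, the oxygen-regulated subunit, by -0.36 ± 0.09 (adjusted p = 0.0278). The count was also 3 with HTB replicate 2 left out, where 12.7% of all genes fell, and the list's median log2 fold change was -0.05, or -0.23 without that library.

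Of 18 tested co-receptors, remaining ligands and modulators of the pathway, 0 passed by edgeR with all libraries, where 11.4% of all genes did. An unadjusted p under 0.05 was reached by 1 higher and 1 lower gene, with the share of all genes not counted. DESeq2 called 1 higher, where it called 1065 of 13469 genes higher. The median log2 fold change of the list was 0.09. Ptprb, the endothelial phosphatase that restrains TIE2, stood at 18.1 ± 12.6 CPM in HTB and 8.14 ± 1.88 CPM in LTB (1.15 ± 0.37, adjusted p = 0.0692). With HTB replicate 2 left out it passed as higher, at 0.63 ± 0.18 (adjusted p = 0.0354). Tie1, the orphan relative of TIE2, stood at 0.70 ± 0.32 (adjusted p = 0.173), or 0.25 ± 0.14 without that library (adjusted p = 0.222), and the semaphorin gene Sema3b at -0.39 ± 0.14 (adjusted p = 0.0903). Ccbe1, needed to activate VEGF-C, passed as lower in the fit without HTB replicate 2 (-1.38 ± 0.37, adjusted p = 0.0250), at 0.364 to 2.08 CPM across HTB libraries and 1.03 to 2.53 CPM across LTB libraries. In that fit 1 of the 18 rose and 1 fell, beside 9.77% and 12.7% of all genes.

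Downstream of the receptors, 1 of 32 signalling genes rose and 2 fell, beside 3.91% and 7.51% of all genes. With all libraries these counts are near the background share. Without HTB replicate 2, 1 of the 32 rose and 3 fell, beside 9.77% and 12.7% of all genes. The adaptor gene Gab1 rose (39.5 ± 4.65 CPM in HTB and 30.6 ± 2.13 CPM in LTB, log2 fold change 0.37 ± 0.09, adjusted p = 0.0252, edgeR). Dok2, an adaptor of TIE2 that is also made by leukocytes, changed by -1.18 ± 0.24 (adjusted p = 0.0130), and the kinase gene Map2k1 by -0.50 ± 0.09 (adjusted p = 0.00681). In the edgeR fit without HTB replicate 2, Gab1 was at 0.41 ± 0.09 (adjusted p = 0.0102). There Dok2 was at -1.22 ± 0.26 (adjusted p = 0.011) and Map2k1 at -0.48 ± 0.09 (adjusted p = 0.00779).

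Among 14 tested tip cell and Notch genes, which mark and pattern sprouting vessels, 2 fell and 0 rose with all libraries, where 7.51% of all genes fell. Apln, a peptide gene of tip cells, was at 29.4 ± 5.95 CPM in HTB and 43.9 ± 6.71 CPM in LTB (-0.58 ± 0.16, adjusted p = 0.0387, edgeR), and the receptor gene Notch1 was at -0.32 ± 0.09 (adjusted p = 0.0464). Plaur, next by p, stood at -0.60 ± 0.21 (adjusted p = 0.0899). In the fit without HTB replicate 2 the number that fell was 4, where 12.7% of all genes fell. When any 1 of the other 9 libraries was left out instead, 0 or 1 passed.

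**Figure D4:**
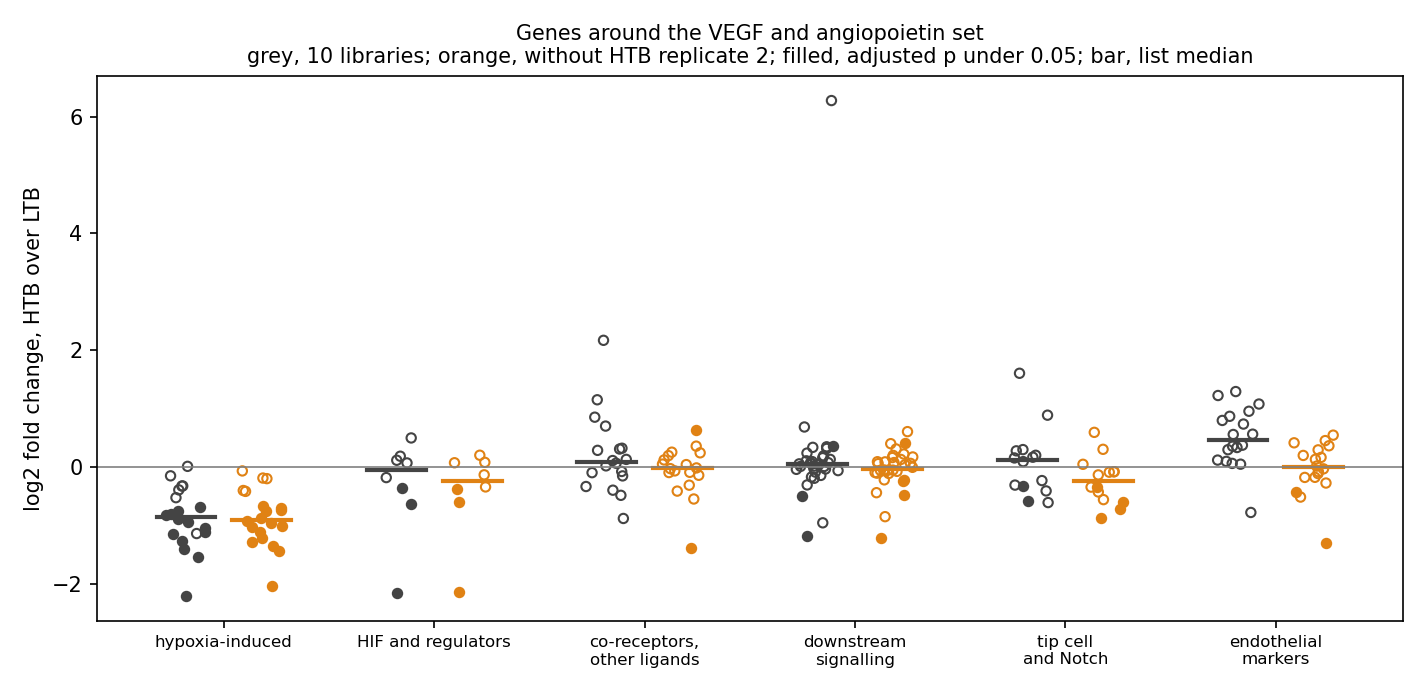
Log2 fold change of HTB over LTB for the tested genes of 6 lists (1 point per gene; grey, all libraries; orange, without HTB replicate 2; filled, adjusted p under 0.05; bar, list median). The 20 hypoxia-induced genes have medians of -0.86 and -0.90, while the endothelial markers have a median of 0.47 with HTB replicate 2 and 0.00 without it.

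Cells around the vessels, a source of Angpt1, gave mixed values. Of 10 tested mural cell markers 1 rose and 1 fell, beside 3.91% and 7.51% of all genes. Abcc9, a channel subunit of pericytes, rose (16.5 ± 13.9 CPM in HTB and 5.54 ± 1.47 CPM in LTB, log2 fold change 1.57 ± 0.45, adjusted p = 0.0464, edgeR) and the proteoglycan gene Cspg4 fell (-0.70 ± 0.18, adjusted p = 0.0347). Abcc9 was at 41.0 CPM in HTB replicate 2, while HTB replicates 1, 3, 4 and 5 spanned 7.36 to 13.4 CPM. Leaving that library out gave 0.90 ± 0.22 (adjusted p = 0.0178) and -0.80 ± 0.18 for Cspg4 (adjusted p = 0.0119). In that fit 1 of the 10 rose and 2 fell, beside 9.77% and 12.7% of all genes. The addition was the smooth muscle actin gene Acta2 at -1.95 ± 0.34 (adjusted p = 0.00530), against -1.14 ± 0.54 with all libraries (adjusted p = 0.188). The summed markers were at 1523 CPM in HTB replicate 2, 204 to 236 CPM in the remaining HTB replicates and 245 to 290 CPM in LTB. Des, which skeletal muscle also makes, held 1122 CPM of that sum in HTB replicate 2. Of 8 fibroblast markers 0 passed with all libraries, where 11.4% of all genes did. An unadjusted p under 0.05 was reached by 1, with the share of all genes not counted. DESeq2 called 1 higher, where it called 1065 of 13469 genes higher. Pdgfra was at 0.63 ± 0.23 (adjusted p = 0.108) and Col3a1 at 0.35 ± 0.17 (adjusted p = 0.202). Pdgfra alone passed with HTB replicate 2 left out (0.78 ± 0.18, adjusted p = 0.0158), where 22.4% of all genes did.

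Levels of the members were compared with each other per kilobase of merged exon in GENCODE M21, as mean CPM per kilobase. In HTB the order was Vegfb at 30.3, Vegfa at 30.0, Angpt2 at 2.39, Kdr at 1.78, Flt1 at 1.20, Tek at 1.05, Pgf at 1.04, Flt4 at 0.590, Vegfc at 0.356, Angpt1 at 0.229. In LTB it was Vegfa at 47.5, Vegfb at 31.2, Angpt2 at 3.20, Kdr at 1.26, Pgf at 1.25, Flt1 at 1.03, Vegfc at 0.600, Flt4 at 0.347, Tek at 0.299, Angpt1 at 0.110. Vegfa and Vegfb overlapped in HTB, at 22.5 to 35.4 and 26.7 to 35.6 CPM per kilobase, and were apart in LTB, at 39.1 to 56.8 and 28.2 to 35.5. The gap between Vegfb and Angpt2 exceeded the spread in both groups, whereas Kdr, Pgf and Flt1 overlapped in both. Leaving out HTB replicate 2 changed the HTB order to Vegfa at 30.7, Vegfb at 29.0, Angpt2 at 2.43, Kdr at 1.22, Pgf at 1.11, Flt1 at 1.02, Tek at 0.552, Flt4 at 0.501, Vegfc at 0.365, Angpt1 at 0.0596.

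The genes most like Kdr and Vegfa were taken by Pearson's r of log2(CPM + 1) over the 10 libraries, after subtracting each group's mean, among genes with a mean of at least 1 CPM. For Kdr these were Sorbs2 (r = 0.99), the basement membrane collagen gene Col4a1 (0.98), Rasgrp3 (0.98), Tie1 (0.98) and Igfbp7 (0.98), and among the members Tek had 0.93. Over the 9 libraries without HTB replicate 2, 1 of these 5, Sorbs2, was still among the first 5, and r with Tek was 0.64. For Vegfa they were Clk2 (0.93), Fam162a (0.93), Zbtb24 (0.92), the glycolytic gene Pgk1 (0.91) and Ubb (0.90). Over the 9 libraries 0 of these 5 were among the first 5, with r from 0.91 to 0.93. These values describe libraries that share depth and tissue make-up and carry no test.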

How the data were processed

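Whole MC38 tumours were profiled by RNA-seq in 2 groups of 5 libraries, assigned by the sample labels. Per the labels' protocols, RNA was isolated with an RNeasy kit and sequenced with a SMARTER library kit. The build was GRCm38 (mm10), per the submitters' processing notes. Aligner, counting tool and strand setting: not given in the sources used here. The authors deposited estimated counts per gene, unscaled, of which 86.4% were whole within 1e-09, and fractions were rounded (by at most 0.5). A line without a gene was left out. The authors' deposited table also holds a log2 fold change, p-value and q-value, whose sign matched the reads in 100% of the 2638 genes with q under 0.05.

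Counts were tested with edgeR 4.0.16 (R 4.3.3): quasi-likelihood test, TMM factors from 0.975 to 1.03, filterByExpr, group as the only term, Benjamini-Hochberg adjustment over all genes tested. CPM used TMM-scaled totals, the SE is the log2 fold change over the square root of F, and the steps were tested on simulated data. Ratios used log2 reads with 0.5 added and exact permutation tests. Totals of 23070917 to 27185168 reads leave genes of few reads, such as Angpt1 and Vegfc, imprecise. Within each group, every pair of libraries differed by more than sampling noise.

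Alternatives were other scaling factors and filters, DESeq2 1.42.0, limma 3.58.1 voom, a block for the replicate number, and omission of libraries. The members, lists and tests were chosen with earlier results of these data known. Named genes are the members, the 3 genes of smallest p in each pathway list, the 2 of smallest p in each marker list and the 5 most like Kdr and Vegfa. Cd68, Lyz2, Cd163, Vwf, Eng, Ccbe1, Prox1, Mmrn1, Reln, Ccl21a, Krt5, Mrc1, Des and Acta2 were named after their values were seen. Symbols and promoters are from RefSeq on GRCm38.p6, to which 18101 gene IDs (99.3%) matched.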

Additional observations from a re-analysis of the deposited data

Results flagged for a closer look

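Of 34 groups of 5 values examined, from 10 genes and 7 ratios, 4 held a library far from the others by Dixon's criterion, which flags about 1 in 20 groups by chance. Of these, 3 were HTB replicate 2, the library rich in muscle and fat transcripts. In it Kdr stood at 36.0 CPM (other HTB libraries 10.4 to 11.4 CPM), Angpt1 at 4.73 CPM (0.182 to 0.366 CPM) and Tek at 14.3 CPM (1.94 to 3.70 CPM). The remaining one was LTB replicate 5, with a log2 ratio of Flt1 to Kdr of 1.32, beside -0.135 to 0.21 in the rest of LTB. Its Kdr value, 7.25 CPM, was the lowest and its Flt1 value, 18.1 CPM, the highest of the LTB libraries.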

How the results depend on the processing

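Vegfa was lower in HTB and passed in 18 of 18 alternatives. The count of genes that passed, 1537, was 2449 with DESeq2 (1065 higher) and 2908 without HTB replicate 2 and LTB replicate 1 together (1245 higher, 1663 lower). Leaving out 1 library gave 736 to 3040 genes (177 to 1324 higher, 559 to 1716 lower), with 736 for HTB replicate 3, 742 for HTB replicate 4, 931 for HTB replicate 5, 940 for LTB replicate 3 and 3040 for HTB replicate 2. The replicate number as a block gave 971 genes (221 higher), with no member gaining or losing a call, Vegfa at -0.67 (adjusted p = 0.00735) and Tek at 1.37 (adjusted p = 0.0841). Same-numbered libraries deviated together with correlations of 0.00164 to 0.109, and 1 of 5 numbers was its own best match, so the numbers were not used as pairs. DESeq2 called Flt4 (0.77) and Tek (1.81). The cause of these shifts was not tested.

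Leaving out 1 library gave log2 fold changes of -0.105 to 0.00860 for Vegfb, -0.0457 to 0.635 for Kdr, -0.0134 to 0.325 for Flt1, -0.871 to 1.32 for Angpt1, 0.882 to 2.01 for Tek and -0.0393 to 0.0859 for the epidermal gene Sbsn. Signs also turned for Kdr (-0.0736), Flt1 (-0.122) and Sbsn (-0.0229) without HTB replicate 2 and LTB replicate 1, and for Angpt1 with limma voom (-0.0449). On the log2 scale, leaving out 1 library gave -0.942 to 0.198 for Angpt2 to Angpt1, -0.313 to 0.0967 for Flt1 to Kdr, -0.0274 to 0.0967 for Kdr and -0.294 to 0.0799 for Flt1 relative to the endothelial markers. With 7 ratios the smallest exact p adjusts to 0.0556 for a single ratio, so the design leaves a lone ratio no way to pass.

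Co-receptor genes called were 1 with DESeq2, 1 without both libraries and 0 to 2 when 1 was left out. Downstream genes were 6 with DESeq2. Tip cell and Notch genes were 1 with DESeq2's size factors in edgeR, 0 with no filter, 1 with the block, 4 without both libraries and 0 to 4 when 1 was left out. Of the 5 genes most like Kdr 1, and of those most like Vegfa 0, remained without HTB replicate 2.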

Other observations

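Epidermal genes gave values that belong to no comparison of the pathway. Krt14, the keratin of basal epidermis, fell (4.38 ± 3.54 CPM in HTB and 39.9 ± 9.51 CPM in LTB, SD, n = 5 each), with a change of -3.19 ± 0.53 on the log2 scale (adjusted p = 0.00569, edgeR). Its HTB libraries, 0.797 to 9.76 CPM, were all under its LTB libraries, 28.5 to 49.3 CPM. Krt5, its usual partner, was listed at 0 in all HTB libraries and in 4 of 5 LTB libraries, with 6.89 CPM in the remaining one. Sbsn stood at 0.02 ± 0.14 (adjusted p = 0.933).

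The adipocyte gene Fabp4 had a log2 fold change of 4.52 ± 1.46 with all libraries (adjusted p = 0.0706, edgeR) and at 0.36 ± 0.21 with HTB replicate 2 left out. Plin4, of fat droplets, was at 1.12 ± 0.34 (adjusted p = 0.0554), or 0.84 ± 0.29 without HTB replicate 2 (adjusted p = 0.0584). The muscle actin gene Acta1 rose by 10.98 ± 2.94 on the log2 scale (adjusted p = 0.0373), and the troponin gene Tnnt3 by 7.28 ± 2.00 (adjusted p = 0.0407). Both still passed by edgeR when HTB replicate 2 was omitted, Acta1 at 4.07 ± 1.09 (adjusted p = 0.026) and Tnnt3 at 1.72 ± 0.31 (adjusted p = 0.00557). They were the only 2 of the 6 tested muscle markers to rise in that fit, where 9.77% of all genes rose. With all libraries 3 of the 6 rose by edgeR, where 3.91% of all genes did, and DESeq2 called 0. Acta1 was scarce in LTB, whose highest library held 1.10 CPM, while the lowest HTB library held 0.474 CPM. For Tnnt3 the lowest HTB library, with 4.63 CPM, stood above the highest LTB library, with 3.07 CPM.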
